A study of Mus musculus with 9 samples.

Results

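Macrophages that had received medium from fibroblasts of pulmonary hypertensive calves were compared with macrophages that had received none. The comparison takes 6 of the 9 RNA-Seq libraries, 3 labelled PH-CM and 3 labelled untreated (UNX), and all 11950 of the 53465 genes in the table whose CPM (reads of the gene per 1000000 counted reads of the library) exceeded 1 in at least 3 of the 9 libraries. The remaining 3 libraries (CO-CM) served to estimate the spread and to show where PH-CM differed from medium of control fibroblasts. All 9 libraries were made from BMDMs, macrophages grown in vitro from the bone marrow of male wild-type C57B6 mice (C57bl6/J in the study's methods) with the growth factor CSF1 at 50 ng/ml, over 5 to 10 days. PH-CM was taken from cultured adventitial fibroblasts of the pulmonary arteries of neonatal calves kept in hypobaric hypoxia, and CO-CM from those of age-matched calves at ambient altitude. Serum was added to both before use. The labels state an exposure of 16 h in one field and of 24 h in another, and the methods of the study state another time again. Each medium was a pool over several fibroblast populations. The study repeated the experiment to give the 3 replicates of a group, and whether each repeat used the same pool is not given in the sources used here. Because the untreated cells had no fibroblast medium of any kind and because the sources used here do not say whether CSF1 was present in the conditioned medium, products added by the fibroblasts, nutrients or growth factor missing from the medium, and the disease of the donor calves cannot be told apart in this comparison.

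Bone marrow macrophages in culture live on CSF1, which acts through its receptor, the product of Csf1r, and drives both survival and division. Part of that signal runs through the kinase ERK to the D-type cyclins and Myc, which release E2F factors and with them the genes of DNA synthesis. Macrophages that stop dividing can keep other programs running, among them lysosomal digestion, sensing of microbes and damage, and secretion of chemokines, matrix proteins and proteases. In pulmonary hypertension macrophages gather in the adventitia, the outer coat of the vessel, next to the fibroblasts whose medium was used here.

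The libraries held between 62017933 and 84314201 reads counted on genes. The CPM of single genes are given with library totals scaled by TMM, which corrects for composition, and sums over markers with the plain totals. All 10 macrophage markers of a fixed list passed the filter, and their summed level lay between 16388 and 18413 CPM in untreated and between 26767 and 28734 CPM in PH-CM libraries. Lyz2 held the largest part of that sum. Of the macrophage markers 7 were called higher, and Cd68, Lgals3 and Aif1 were not called. Cd3d, Cd3e and Cd3g of T cells, Pax5 of B cells, Ly6g of neutrophils, Gp9 and Gp6 of megakaryocytes and Calcr of osteoclasts had at most 3 reads in any library. Single members of those and other lists were called higher, S100a8 (neutrophils), Ebf1 (B cells), Cd4 (T cells), Pf4 (megakaryocytes), Ctsk and Acp5 (osteoclasts) and Vwf and Kdr (endothelium). Kit, of mast cells and basophils, was called lower. The 5 endothelial markers summed to between 149 and 186 CPM in untreated and between 310.3 and 323 CPM in PH-CM libraries. Nearly all of that sum was Vwf and Kdr, while Cdh5 was not called and Tek and Egfl7 did not pass the filter. The 10 fibroblast markers summed to between 216 and 272 CPM in untreated and between 278 and 359 CPM in PH-CM libraries, 8 of them passed the filter and 5 were called higher. Their part in the results on matrix genes was not tested. Libraries with the same replicate number deviated from their group means together, and replicate 1 lay apart from the other numbers in each group. Without UNX replicate 1 the counts of called genes given next were 3610 higher and 3787 lower, and without PH-CM replicate 1 they were 3672 and 3790. In bulk RNA, fewer cells of a type and less RNA per cell cannot be told apart.

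Compared with untreated BMDMs, 3746 genes were higher in PH-CM treated BMDMs (31.3% of those tested) and 3788 were lower (31.7%), at a false discovery rate (FDR) of at most 0.05 in edgeR's quasi-likelihood test and a fold change of at least 1.2. At a fold change of at least 2, 982 genes were higher (8.22%) and 1171 lower (9.8%). The tails differed in shape. At least 8-fold, 79 genes rose and 182 fell, whereas at least 32-fold, 18 rose and 8 fell. The median log2 fold change over all genes was 0.01, and in 9285 genes (77.7%) the 3 libraries of one group all lay above the 3 of the other. Called genes are the majority here, so the counts of each gene group are to be read against these shares. Of the genes given below with their levels, only Ldha and C1qb had groups that overlapped. Many of these genes were named by a rule that required groups without overlap, so the lack of overlap is no result about them.

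**Figure D1:**
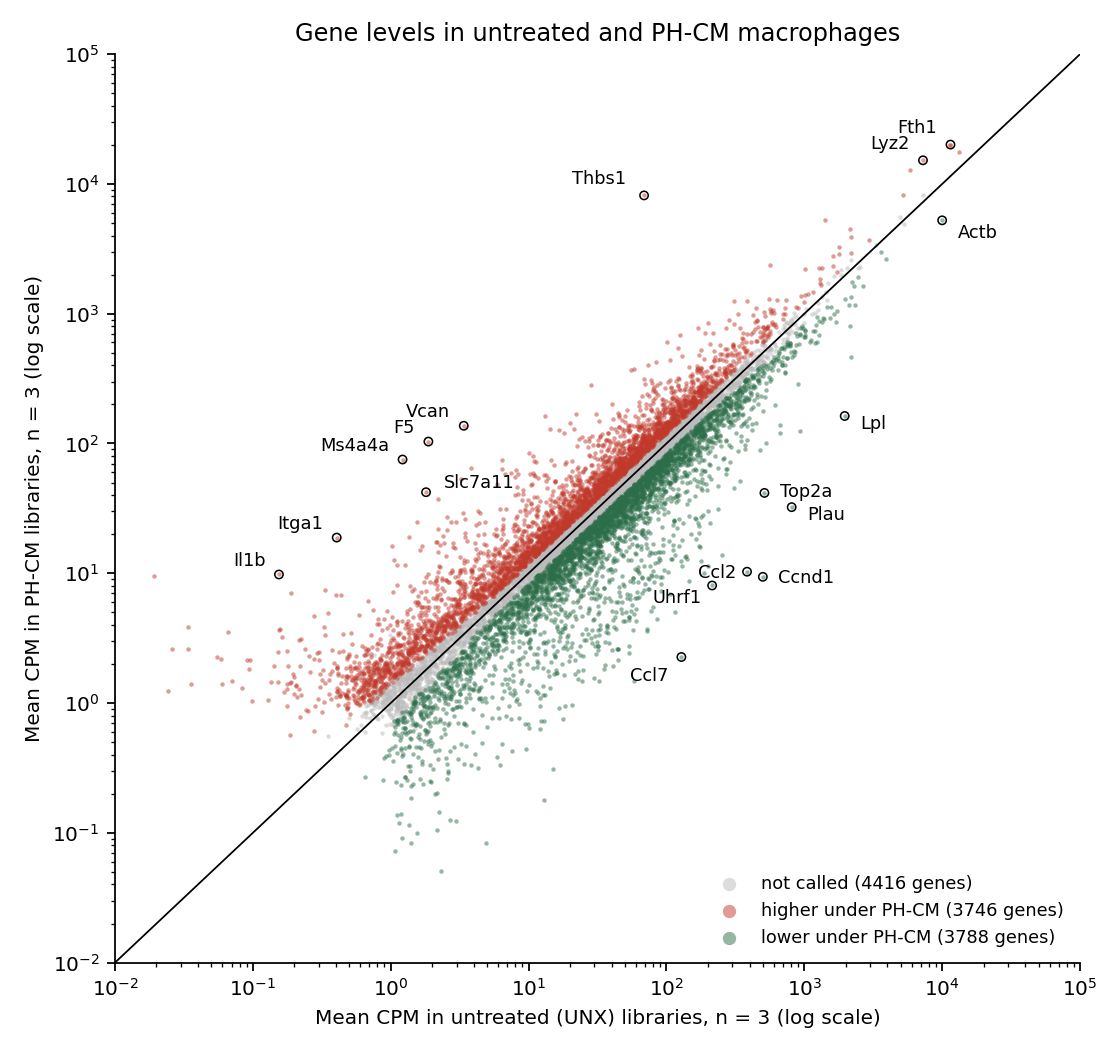
Mean CPM of each tested gene in the 3 untreated libraries (horizontal, log scale) and the 3 PH-CM libraries (vertical, log scale), coloured by the edgeR call, with the line of equal level. Thbs1, Vcan, F5 and Ms4a4a stand far above the line, and Ccl7, Ccl2, Ccnd1 and Uhrf1 far below it.

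In terms of messenger RNA per length of gene (RPKM, as deposited by the authors), the 10 largest gains among called genes mostly fell on messages that were abundant before treatment. Fth1, the heavy chain of ferritin, stood at 13619 ± 466 RPKM in untreated and 22923 ± 863 in PH-CM libraries (SD, n = 3), and Lyz2, the lysozyme of macrophages, at 5664 ± 212 and 11412 ± 324. The lysosomal genes Psap, Ctss, Ctsd, Ctsb and Gpnmb, the lipid carrier Apoe and the lectin receptor Clec4d also stood among the 10 largest gains. Thbs1, which encodes the secreted matrix protein thrombospondin-1, was the only one of the 10 that was scarce before treatment, with 11.7 ± 2.38 RPKM in untreated and 1326 ± 93.5 in PH-CM libraries, and it ended above Apoe (1101 ± 114). Among the 10 largest losses, Actb, cytoplasmic actin, went from 3834 ± 216 to 1932 ± 28.5 RPKM, Tubb5, a tubulin of dividing cells, from 669 ± 19.5 to 138 ± 6.94, and Plau, the urokinase that activates plasminogen, from 352 ± 51.9 to 13.5 ± 1.24. Tmsb4x, which binds actin monomers, Lgals1, Spp1, Ptma, mt-Nd1 and the ribosomal protein genes Rplp1 and Rpl8 made up the rest. Reads of Ctsb can include reads of Fdft1, and those of Spp1 reads of Gm42793, since their exons overlap and the sources used here do not say whether strand was used in counting. The RPKM carry no correction for composition, and the 20 genes with most reads took 10.7% to 11.7% of each untreated and 15.2% to 16.1% of each PH-CM library.

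**Figure D2:**
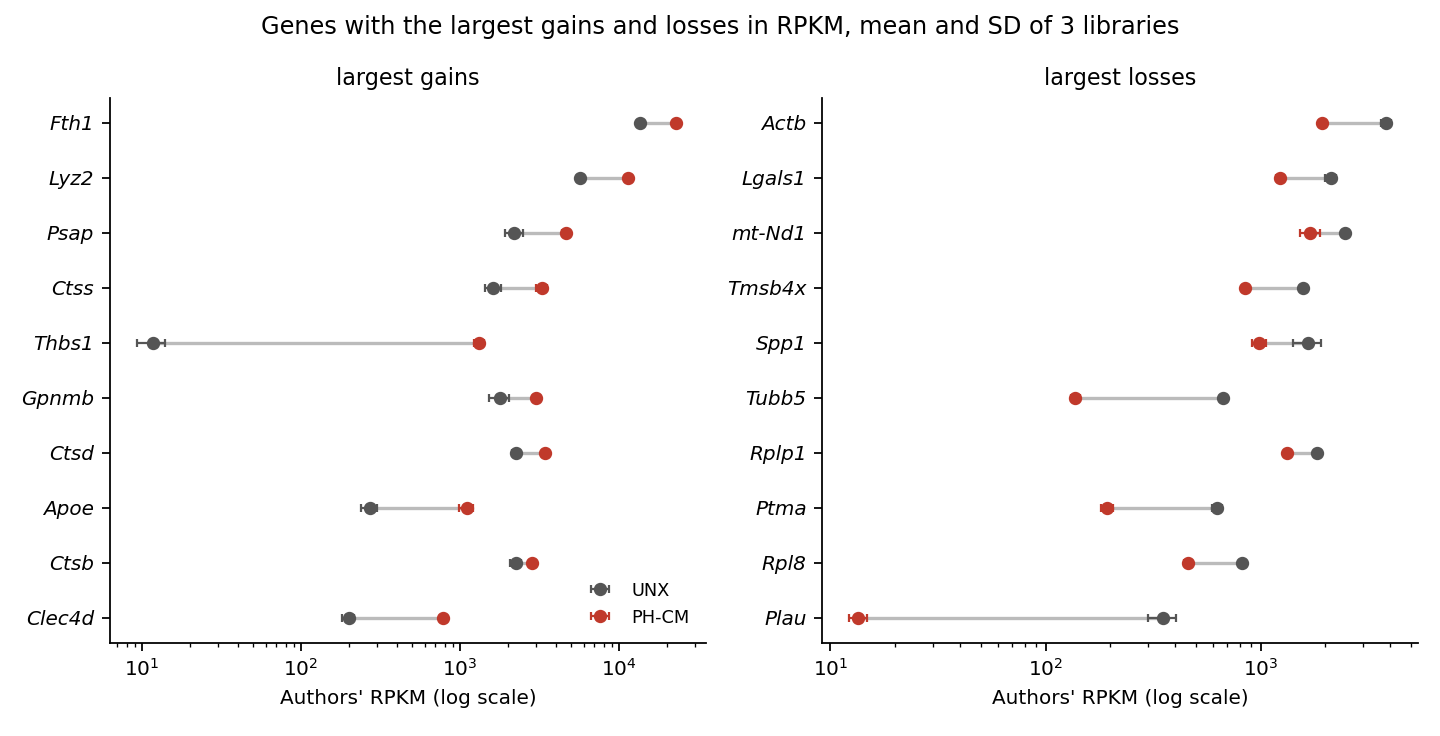
Authors' RPKM (log scale, mean and SD of 3 libraries) of the 10 called genes with the largest gain (left) and the 10 with the largest loss (right), in untreated and PH-CM libraries. Thbs1 and Plau span the widest range on the log scale, while the other gains and losses are mostly changes of already abundant messages.

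The genes were then grouped into 37 lists by role, of which 1016 of 1124 genes passed the filter. Lists of the dividing cell lay lowest, with a median log2 fold change of -2.87 in mitosis and -2.63 in DNA replication, followed by G1 control (-1.31), ribosome biogenesis (-1.01), the ATF4 stress response (-0.96) and cholesterol synthesis (-0.68). The MS4A family of membrane proteins lay highest (2.21), followed by monocyte and granulocyte genes (1.56) and by coagulation and plasminogen (1.05). Some genes stand in several lists, so the counts of such lists are not separate results. Thbs1 is in those of monocytes and granulocytes, of coagulation and of matrix, and F5 in those of monocytes and granulocytes and of coagulation. Glycolysis (0.03), the mitochondrial genome (-0.03) and iron handling (0.15) had medians close to that of all genes. These medians cover only members that passed the filter, which a high level in one group is enough to pass: 8 of 16 MS4A genes and 12 of 45 monocyte and granulocyte genes did not.

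**Figure D3:**
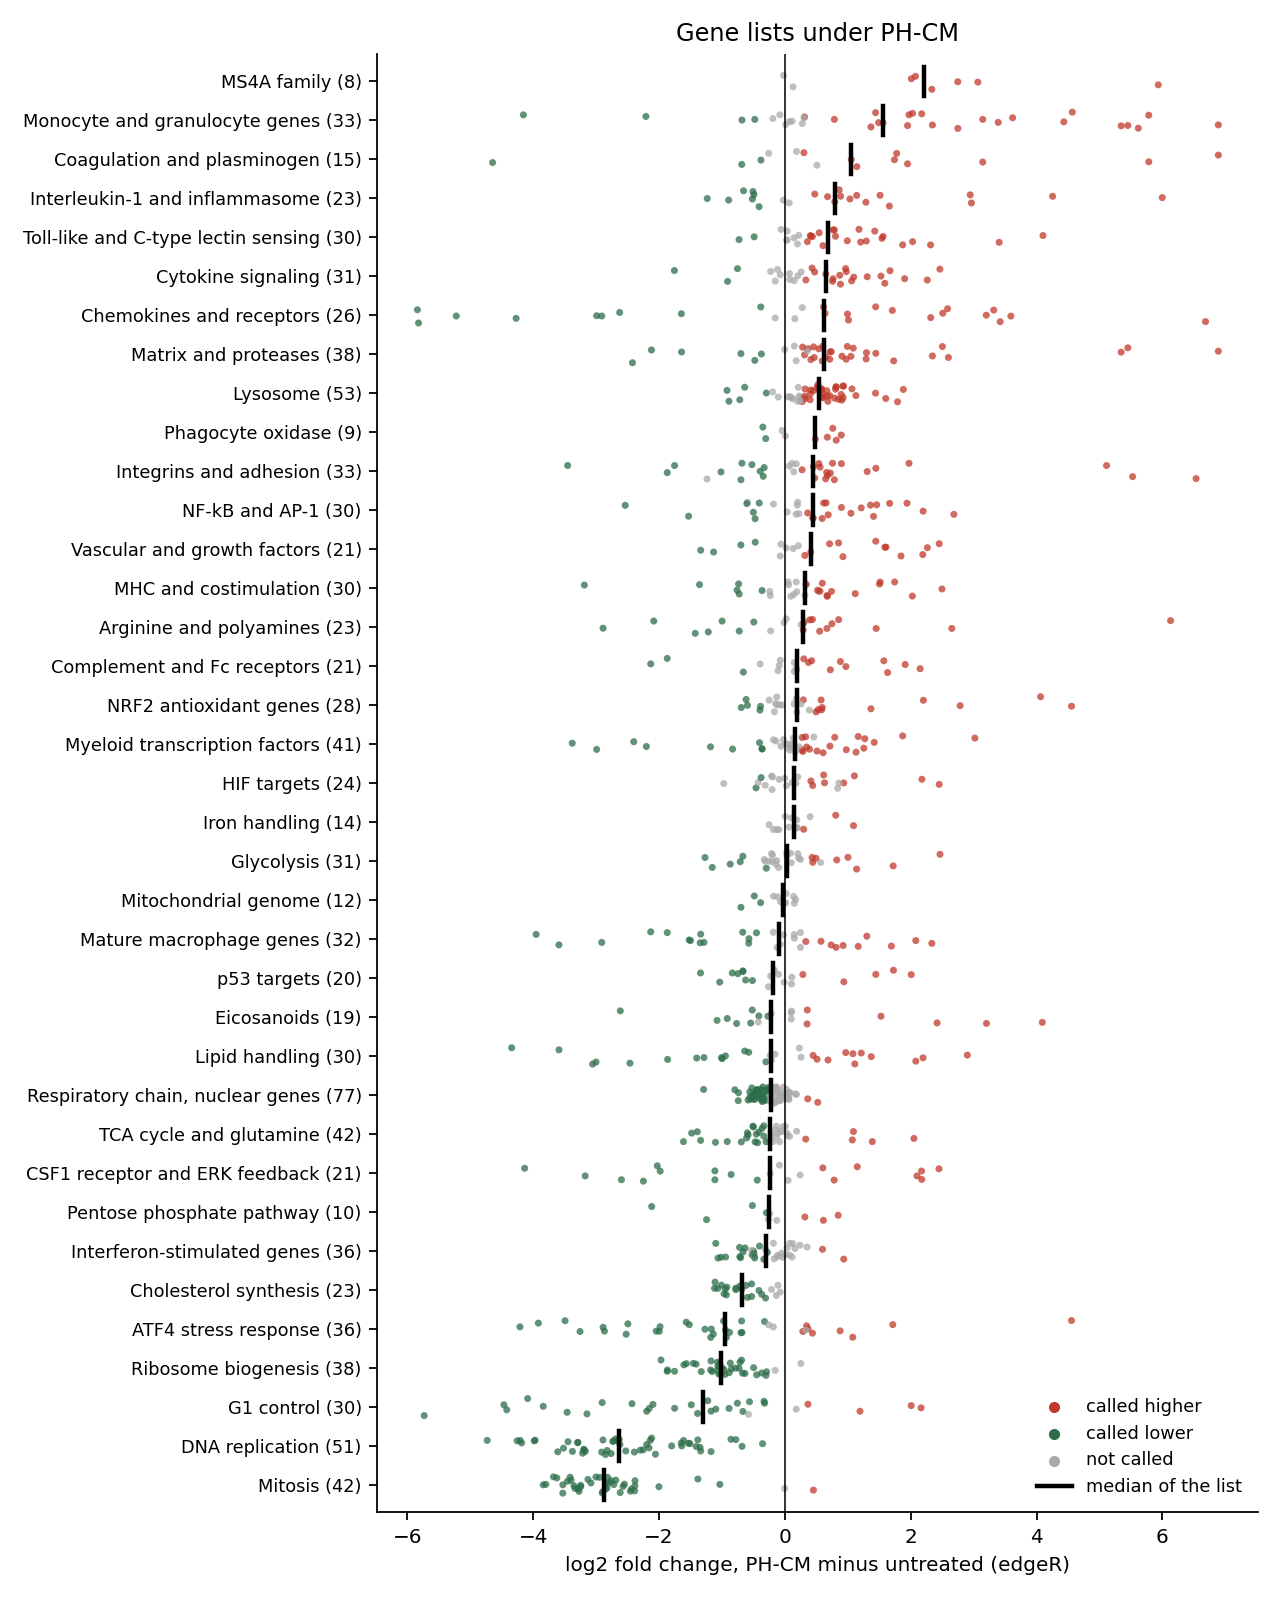
The log2 fold change of PH-CM against untreated libraries (edgeR) for each tested member of the 37 gene lists, with the number tested in brackets, a point per gene coloured by its call and a bar at the median of the list. The lists of mitosis and DNA replication lie almost wholly to the left of 0, and several lists, such as chemokines and lipid handling, spread to both sides.

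Genes of DNA replication fell without exception among the 51 tested, 47 of them at least 2-fold. All 19 genes of origin licensing and the helicase, all 24 of the polymerases, clamp and ligase and all 8 of nucleotide supply were called lower. Uhrf1, which carries DNA methylation through replication, had 225, 202 and 216 CPM untreated and 9.25, 6.83 and 8.07 CPM under PH-CM (log2 fold change -4.73, SE 0.19, edgeR FDR 8.15e-09). Pole, the catalytic subunit of polymerase epsilon, stood at 90.8, 78.9 and 86.8 CPM and at 5.25, 4.07 and 4.08 CPM (log2 fold change -4.25, edgeR FDR 4.79e-09). Pcna, the sliding clamp and the most abundant of the list per length, went from 226 ± 8.68 to 41.3 ± 2.17 RPKM (log2 fold change -2.39). In mitosis, 40 of 42 genes fell, all 40 at least 2-fold. Ccna2, the cyclin of S phase and mitotic entry (its exons overlap Exosc9), read 188, 171 and 171 CPM untreated and 14.2, 12.5 and 10.3 CPM under PH-CM, and Kif15, a spindle motor, 62.9, 61.3 and 55.3 and 4.25, 4.09 and 4.54 CPM. Every PH-CM library lay below every untreated one in these genes, which the rule that named most of them required. The lone mitotic gene called higher was Cenpa, the histone of the centromere, with 69.3, 77.5 and 72.7 CPM in untreated and 82.6, 108 and 110.5 CPM in PH-CM libraries (log2 fold change 0.45, edgeR FDR 0.0278). Leaving out any of 4 libraries (replicates 1 and 3 of UNX, 2 and 3 of PH-CM) ended this call, with FDR up to 0.0964. Together the DNA replication list took 0.519% to 0.563% of all reads in untreated and 0.103% to 0.109% in PH-CM libraries.

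Promoters are shown for the pair of members of each list with the largest fall among those whose window holds letters named for a cell cycle factor, searched on both strands. The windows are RefSeq promoters of GRCm38.p6, 250 bases before to 50 after the start site, available for 9147 of the tested genes. Capitals mark the E2F letters TTTCCCGC or TTTGGCGC in Mcm5 and Cdc6, a helicase subunit and the factor that loads the helicase, and the letters TTTGAA, the cell cycle homology region (CHR) of late cell cycle genes, in Kif15 and in Top2a, the topoisomerase that untangles chromosomes.
Mcm5 (chr8:75109259-75109558, plus strand): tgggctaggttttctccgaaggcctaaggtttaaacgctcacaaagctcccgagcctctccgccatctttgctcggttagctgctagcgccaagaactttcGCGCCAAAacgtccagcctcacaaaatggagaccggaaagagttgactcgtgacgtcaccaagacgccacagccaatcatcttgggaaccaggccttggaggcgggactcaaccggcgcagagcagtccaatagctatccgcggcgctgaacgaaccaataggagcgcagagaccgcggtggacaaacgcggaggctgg
Cdc6 (chr11:98907901-98908200, plus strand): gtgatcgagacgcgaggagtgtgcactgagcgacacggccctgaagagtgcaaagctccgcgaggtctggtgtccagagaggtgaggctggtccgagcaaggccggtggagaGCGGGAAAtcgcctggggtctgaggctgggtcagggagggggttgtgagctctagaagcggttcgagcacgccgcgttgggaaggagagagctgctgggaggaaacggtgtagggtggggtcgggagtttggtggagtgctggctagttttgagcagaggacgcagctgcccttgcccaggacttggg
Kif15 (chr9:122950831-122951130, plus strand): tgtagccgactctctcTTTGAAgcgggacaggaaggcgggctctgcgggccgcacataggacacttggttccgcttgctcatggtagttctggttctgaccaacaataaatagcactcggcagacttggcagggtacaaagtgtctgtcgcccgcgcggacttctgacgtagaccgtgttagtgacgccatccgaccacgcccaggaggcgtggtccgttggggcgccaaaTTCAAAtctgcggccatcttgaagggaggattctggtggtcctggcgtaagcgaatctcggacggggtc
Top2a (chr11:99024140-99024439, minus strand): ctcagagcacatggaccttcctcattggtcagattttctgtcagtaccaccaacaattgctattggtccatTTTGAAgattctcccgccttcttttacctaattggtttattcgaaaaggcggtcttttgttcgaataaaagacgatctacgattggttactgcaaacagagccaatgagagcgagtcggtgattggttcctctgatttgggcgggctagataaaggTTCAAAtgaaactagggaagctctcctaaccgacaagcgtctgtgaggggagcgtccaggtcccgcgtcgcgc

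The E2F letters began 149 bases before the start of Mcm5 and 138 bases before that of Cdc6, both on the opposite strand. A gene can have several windows or none. Of the 51 windows, which came from 42 DNA replication genes, 7 held TTTCCCGC (13.7%) and 7 TTTGGCGC (13.7%), against 2.09% and 0.933% of the 11680 windows of all tested genes. TTTGAA lay 19 bases before the start of Kif15 and 23 bases before that of Top2a, with another match further upstream in each. It was found in 27 of the 36 windows of 34 mitosis genes (75% of windows) and in 12.1% of the windows of tested genes. CCAAT, the box read by NF-Y, was found in 27 of those 36 windows and in 38.1%. Top2a held 6 CCAAT letters. Mcm5 itself went from 251 ± 14 CPM to 13.8 ± 2.36 CPM (SD, n = 3), Cdc6 from 40.3 ± 4.19 to 2.57 ± 0.509, and Top2a from 513 ± 32.9 to 41.6 ± 2.5.

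Upstream of replication, the G1 cyclins, kinases and activators fell in 16 of 16 cases, while the inhibitors split, with 4 higher and 8 lower of 14. Ccnd1, cyclin D1, whose exons overlap LTO1, had 645, 397 and 458 CPM untreated and 10.9, 7.68 and 9.58 CPM under PH-CM, and Ccne2, cyclin E2, overlapping Ints8, 56.3, 52.7 and 52.6 and 3.24, 1.75 and 2.28 CPM. The inhibitor genes that rose were Cdkn1b, Rbl2 (overlapping Aktip), Btg1 and Btg2. Cdkn1b, the p27 inhibitor, stood at 31.1, 36.6 and 31.1 CPM and 71.5, 83.9 and 70.8 CPM (log2 fold change 1.19, edgeR FDR 1.07e-05). Btg1, an antiproliferative cofactor, stood at 100.5, 139.8 and 126 CPM and 498, 604 and 542 CPM (log2 fold change 2.17, edgeR FDR 2.64e-07). Cdkn1a, the p21 inhibitor and a target of p53, went the other way, from 294 ± 28.3 to 185 ± 17.5 CPM (SD, n = 3). The p53 targets gave 5 higher and 8 lower of 20, Trp53inp1 among the former (log2 fold change 1.73) and Plk2 among the latter (-1.34).

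Genes that ERK signaling induces mostly fell, while 4 of 7 growth factor receptors rose and 1 fell. Of 14 such genes, phosphatases of ERK, Sprouty-family inhibitors and an ETS factor, 9 were lower and 3 higher. Etv5, the ETS factor, stood at 198, 205 and 196 CPM untreated and 11.6, 11.2 and 11.3 CPM under PH-CM (log2 fold change -4.14, SE 0.155, edgeR FDR 4.84e-09), and Dusp6, the phosphatase of cytoplasmic ERK, at 154, 176 and 155 and 26.5, 27.1 and 26.5 CPM. The 3 that rose were Dusp1 (overlapping Ergic1), Dusp5 and Spred3 (overlapping Ggn), with log2 fold changes of 1.15, 2.17 and 0.60. Csf1r itself (overlapping Hmgxb3) went from 1615 ± 116 to 2779 ± 218 CPM (SD, n = 3). The shared beta chain of the GM-CSF and IL-3 receptors, Csf2rb, had 108, 136 and 132 CPM untreated and 623, 729 and 701 CPM under PH-CM, and Csf3r, the G-CSF receptor, 5.45, 7.17 and 8.0 and 24.1, 35.1 and 34.4 CPM. Signal-dependent transcription factors moved in both directions, 8 higher and 5 lower of 21: Egr1, Egr2, Egr3 and Id1 were lower, with log2 fold changes of -2.40, -2.20, -3.38 and -2.99, and the nuclear receptor Nr4a2 was higher (3.02).

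Ribosome biogenesis genes were lower in 36 of 38 cases, 19 of them at least 2-fold, and none was higher (1 was with the replicate number as a block and 1 without UNX replicate 1). Dkc1 (overlapping Mpp1), the pseudouridine synthase, stood at 40.1 ± 8.4 CPM in untreated and 10.2 ± 1.15 CPM in PH-CM libraries (SD, n = 3), and Npm1, nucleophosmin, at 413 ± 20.5 and 183 ± 0.784 CPM. Cytosolic ribosomal protein genes took 2.92% to 3.02% of the reads in untreated and 1.84% to 1.99% in PH-CM libraries.

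The ATF4 stress response, which supplies amino acids when they run short, moved in both directions. Of 36 genes tested, 25 were lower and 8 higher, the latter 5 when library size alone set the scale. All but 1 of the 18 genes of amino acid synthesis and tRNA charging were lower, and so was Slc7a5, the transporter of large neutral amino acids, with 101, 52.3 and 78.6 CPM untreated and 6.16, 4.03 and 5.1 CPM under PH-CM (log2 fold change -3.92, edgeR FDR 4.53e-07). Slc7a1, the importer of arginine and lysine, went from 150.0 ± 29.9 to 20.2 ± 3.32 CPM, and Chac1, which degrades glutathione, from 6.17 ± 1.56 to 0.331 ± 0.127 CPM (SD, n = 3). Slc7a11, the cystine importer, was the largest exception at 2.22, 1.51 and 1.68 CPM untreated and 44.7, 36.5 and 45.2 CPM under PH-CM. Ddit4, an inhibitor of mTORC1, rose by 1.72 on the log2 scale and Ppp1r15a by 0.88, while Slc3a2, the heavy chain that Slc7a5 and Slc7a11 share, rose by 0.44. Promoters of the pair that fell most and of the gene that rose most among members holding the element are set side by side, from the same RefSeq table, with the amino acid response element TGATGNAA in capitals.
Chac1 (chr2:119350992-119351291, plus strand): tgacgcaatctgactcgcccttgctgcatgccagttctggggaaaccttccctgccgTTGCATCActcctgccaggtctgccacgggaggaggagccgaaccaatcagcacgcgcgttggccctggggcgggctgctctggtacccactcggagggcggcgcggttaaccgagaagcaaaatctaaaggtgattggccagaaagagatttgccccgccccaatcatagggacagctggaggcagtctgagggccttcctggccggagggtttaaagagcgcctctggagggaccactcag
Asns (chr6:7693160-7693459, minus strand): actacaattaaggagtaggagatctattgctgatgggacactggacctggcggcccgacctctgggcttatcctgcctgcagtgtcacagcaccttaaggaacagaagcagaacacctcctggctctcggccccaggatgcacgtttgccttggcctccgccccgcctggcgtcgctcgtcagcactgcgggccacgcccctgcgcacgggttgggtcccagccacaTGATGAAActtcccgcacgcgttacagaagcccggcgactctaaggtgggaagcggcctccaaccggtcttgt
Slc7a11 (chr3:50443564-50443863, minus strand): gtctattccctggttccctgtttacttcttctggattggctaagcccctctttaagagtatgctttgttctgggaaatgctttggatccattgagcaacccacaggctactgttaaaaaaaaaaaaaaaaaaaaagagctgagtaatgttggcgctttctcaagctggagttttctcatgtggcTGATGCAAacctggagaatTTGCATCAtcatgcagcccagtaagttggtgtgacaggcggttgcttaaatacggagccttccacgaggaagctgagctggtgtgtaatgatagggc

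Slc7a11 held the element on both strands, 66 and 47 bases before its start, and Asns, asparagine synthetase, held it 23 bases before. Of the 25 windows of members that fell, 11 held these letters (44%), and of the 10 windows of members that rose, 2 did (20%). The share among windows of all tested genes was 2.35%. The letters stood in promoters of genes that went in opposite directions. Asns stood at 105, 61.8 and 81.2 CPM untreated and 17.8, 11.8 and 13.5 CPM under PH-CM. Arginine and polyamine genes were also divided, 11 higher and 7 lower of 23, with the synthases Srm (71.5 ± 10.3 to 16.9 ± 1.83 CPM) and Sms (86 ± 1.95 to 32 ± 1.2 CPM) lower and Sat1, which acetylates polyamines for export, higher (97.9 ± 6.36 to 268 ± 23.9 CPM; SD, n = 3).

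Genes typical of monocytes and granulocytes that passed the filter mostly rose, and by high folds. Among the 10 markers of neutrophils and granulocyte precursors, only S100a8 passed it. Those 10 summed to between 2.34 and 3.64 CPM in untreated and between 2.9 and 4.165 CPM in PH-CM libraries. Of 33 tested genes of the monocyte and granulocyte list, 22 were higher, 20 of them at least 2-fold, and 4 were lower. The other 12 of the 45 listed fell below the filter, S100a9, Lcn2 and Ly6c2 among them. Vcan, the proteoglycan versican, stood at 4.17, 2.76 and 3.24 CPM untreated, 5.26, 4.61 and 4.22 CPM under CO-CM and 114, 156 and 141 CPM under PH-CM (edgeR FDR 1.68e-09 against untreated and 2.57e-08 against CO-CM). F5, coagulation factor V, stood at 1.6, 2.44 and 1.58 CPM untreated and 91, 116 and 104 CPM under PH-CM (log2 fold change 5.78, SE 0.158, edgeR FDR 1.28e-09). Its libraries and those of Vcan also did not overlap between PH-CM and CO-CM. Thbs1 had 80.9, 54.6 and 70.8 CPM untreated, 209, 139 and 138 CPM under CO-CM and 7365, 8591 and 8509 CPM under PH-CM. The list as a whole took 0.167% to 0.171% of reads in untreated and 1.04% to 1.15% in PH-CM libraries. Thbs1 alone made up most of the PH-CM share, so this sum does not describe the other members. Against the majority of the list, Cd300e, an activating receptor of monocytes, fell from 7.64 ± 0.802 to 0.428 ± 0.136 CPM and Spn, the sialophorin CD43, from 35.4 ± 1.07 to 7.65 ± 1.02 CPM (SD, n = 3). Of the 16 MS4A genes listed, 8 were below the filter, and of the 8 tested 6 rose and none fell. Ms4a4a, at chromosome 19 from 11375523 to 11392790 of GRCm38, had 1.03, 1.25 and 1.37 CPM untreated, 11, 11.8 and 11.2 CPM under CO-CM and 62.3, 83.8 and 79.7 CPM under PH-CM.

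**Figure D4:**
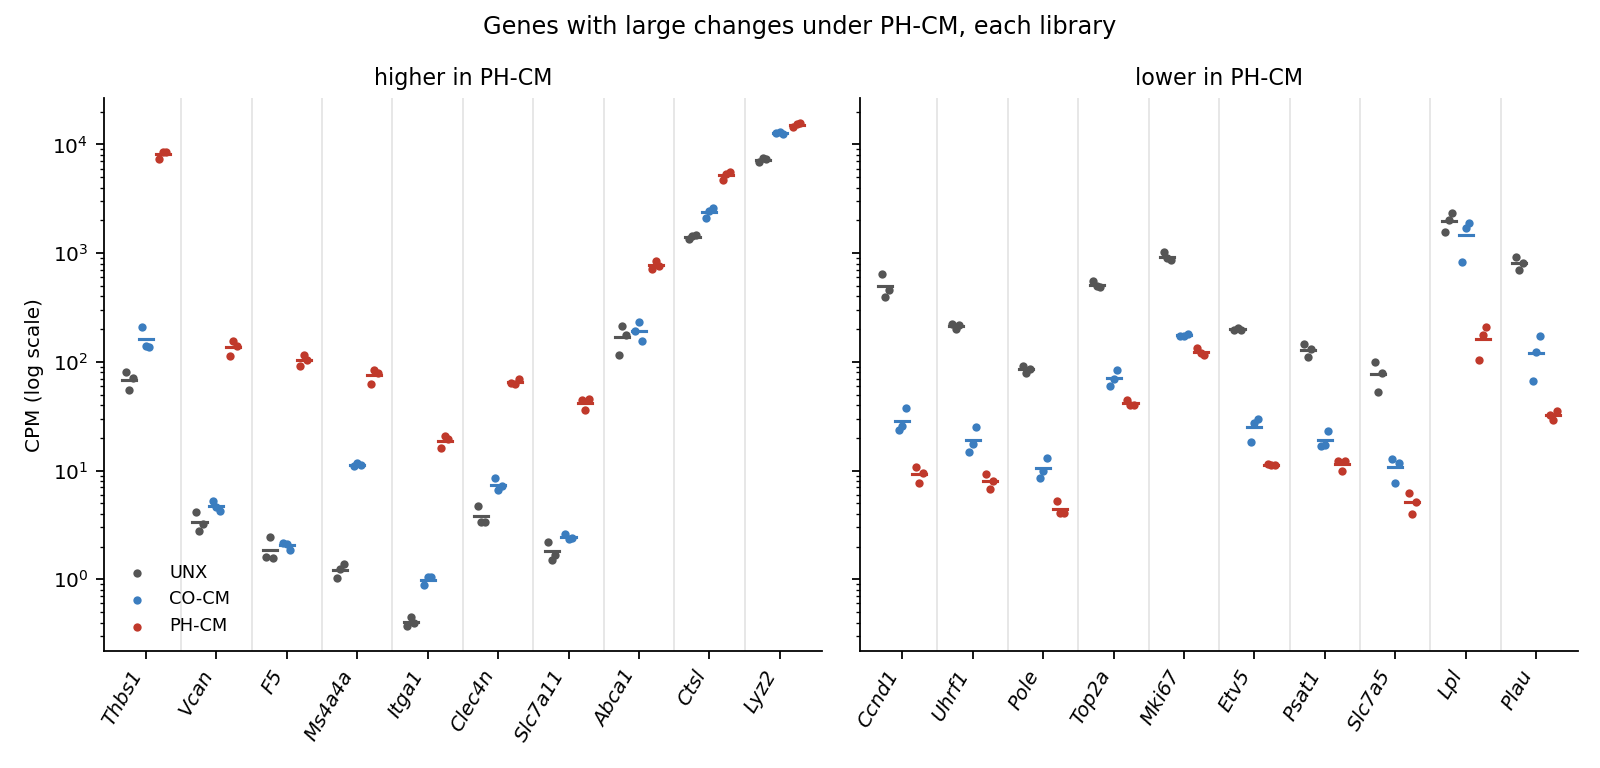
CPM (log scale) in each of the 9 libraries for 10 genes that were higher (left) and 10 that were lower (right) under PH-CM than in untreated BMDMs, with a point per library and a bar at each group mean. In Vcan, F5 and Slc7a11 the CO-CM points lie close to the untreated ones and far below PH-CM, while in the cell cycle genes CO-CM lies between untreated and PH-CM.

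Coagulation and plasminogen genes rose in 9 and fell in 3 of 15 cases, and matrix and protease genes rose in 28 and fell in 6 of 38. Plau fell most of the coagulation list: its libraries stood at 920.3, 702 and 804 CPM untreated and 32.4, 29.4 and 35.1 CPM under PH-CM, with its receptor Plaur at 109, 77.2 and 96.5 and 56, 56.8 and 63 CPM. The fall was far larger in Plau. Among proteases, Mmp12, macrophage elastase, went from 476 ± 201 to 88.8 ± 33 CPM and Mmp13, a collagenase, from 11 ± 2.48 to 3.54 ± 0.401 CPM (SD, n = 3), whereas 12 of the 18 proteases and inhibitors were higher. Itga1, the collagen-binding integrin alpha 1, at chromosome 13 from 114953096 to 115101964, rose from 0.37, 0.451 and 0.396 CPM to 16.1, 20.9 and 19.5 CPM. Integrin and adhesion genes gave 18 higher and 10 lower of 33, with Itgal, the alpha chain of LFA-1, at 18.6 ± 6.5 and 72.6 ± 2.54 CPM and Itga6, a laminin receptor, at 299 ± 52.2 and 148 ± 19.9 CPM (SD, n = 3).

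Chemokine genes were rearranged. Of 8 CC ligands tested, 5 fell and 3 rose, and of 9 CXC and other ligands, 2 fell and 7 rose. The monocyte attractants Ccl2 and Ccl7 fell to a small remainder, Ccl2 with 383, 335 and 433 CPM untreated and 9.51, 8.9 and 12.4 CPM under PH-CM and Ccl7 with 113, 123 and 149 and 2.26, 2.03 and 2.5 CPM. Ccl3 and Ccl4, further attractants of leukocytes, went from 77.6 ± 15 to 9.77 ± 1.21 CPM and from 35.5 ± 8.16 to 1.84 ± 0.44 CPM (SD, n = 3). In contrast, Ccl9 stood at 516, 699.8 and 689 CPM untreated and 1104, 1375 and 1358 CPM under PH-CM and Cxcl16 (overlapping Zmynd15) at 23.1, 19.9 and 21.1 and 113, 138 and 133 CPM. Among receptors, Cxcr4, the receptor of CXCL12, rose from 22.4, 31.9 and 30.8 CPM to 292, 273 and 286 CPM (log2 fold change 3.32, edgeR FDR 2.88e-09). Cx3cr1 and Ccr3 were lower, by 2.91 and 2.63 on the log2 scale.

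Of 23 genes of the interleukin-1 and inflammasome list, 14 were higher (60.87%, against 31.3% of all genes). The 7 called lower (30.43%) were near the share over all genes (31.7%). Of 5 ligands and antagonists, 4 were higher and 1 lower. Il1b had 0.185, 0.185 and 0.0931 CPM in untreated and 7.11, 12.4 and 9.85 CPM in PH-CM libraries, from very few reads before treatment. Its antagonist Il1rn stood at 50.9, 64.1 and 69.2 CPM and 34.6, 46 and 48.3 CPM (log2 fold change -0.52, edgeR FDR 0.0442), a call that was lost in 7 alternatives, among them those without UNX replicate 2 or 3, CO-CM replicate 2 or PH-CM replicate 1 or 2 (largest FDR 0.148). Of 12 inflammasome genes, 8 rose and 3 fell (25%, below the share over all genes). Nlrc4 rose from 4.07 ± 0.88 to 12.9 ± 0.567 CPM, while Nlrp3 fell from 83.1 ± 12.2 to 44.7 ± 4.17 CPM (SD, n = 3). Casp1 and the adaptor Pycard were lower by 0.41 and 0.51 on the log2 scale. Cytokine signaling genes gave 19 higher and 3 lower of 31, most of them receptors (12 of 18 higher). Tnfrsf1b, TNF receptor 2, had 165, 203 and 206 CPM untreated and 705, 725 and 718 CPM under PH-CM, whereas Tnf itself had 34, 18.7 and 22.2 and 7.97, 6.87 and 7.28 CPM. Socs3, a feedback inhibitor of STAT3, rose by 2.46 on the log2 scale. Of the growth factors, 12 of 21 tested were higher and 4 lower: Vegfa had 48.5, 99.1 and 73.5 CPM untreated and 325, 474 and 413 CPM under PH-CM, Hgf 7.45, 8.96 and 8.82 and 40, 42.4 and 39.1 CPM, and Igf1 412, 324 and 390.4 and 152, 133 and 161 CPM. Pdgfb fell from 28.8 ± 5.87 to 13.1 ± 1.52 CPM (SD, n = 3).

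**Figure D5:**
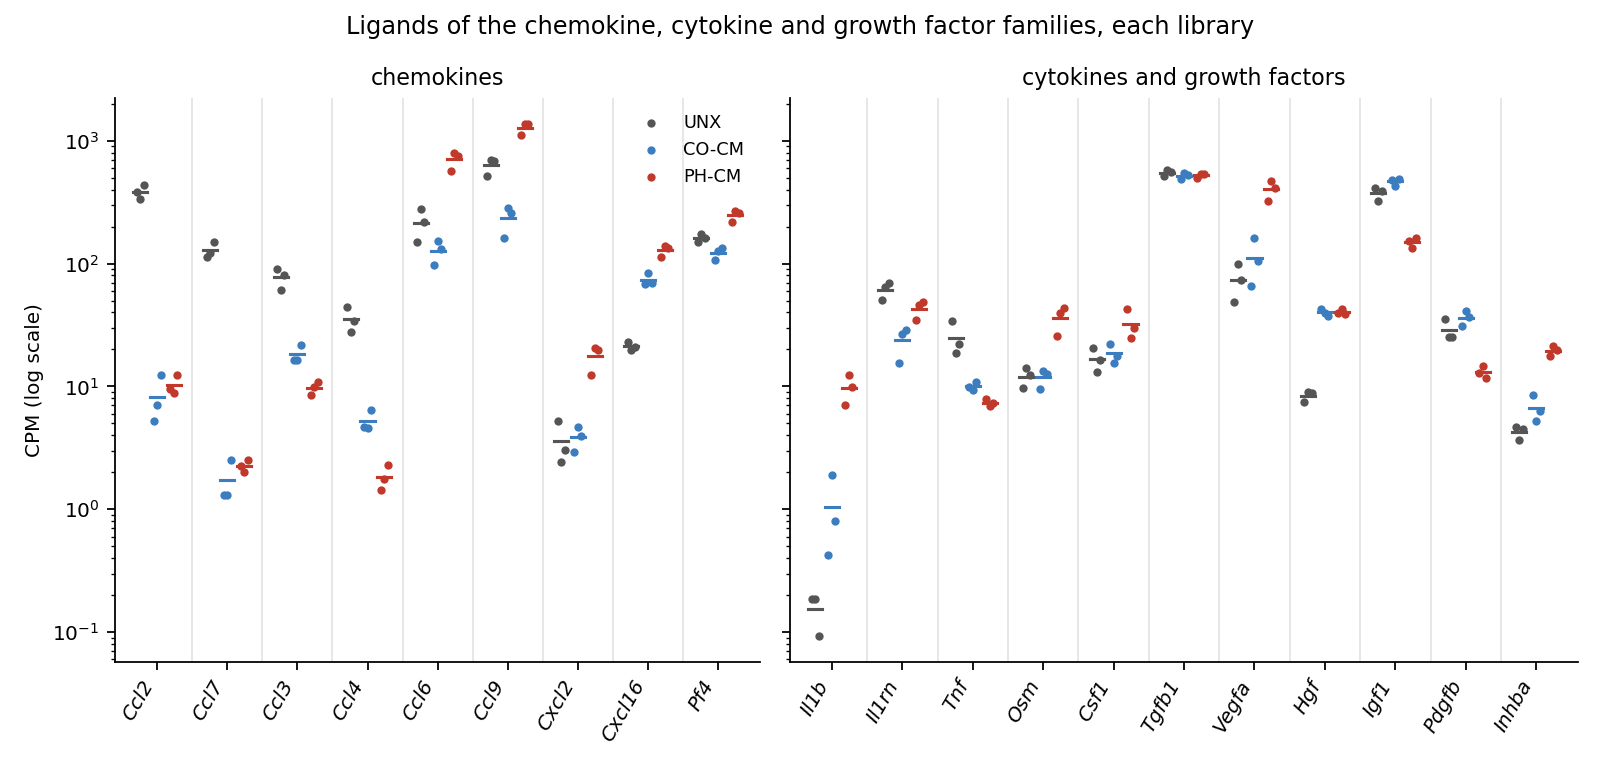
CPM (log scale) of chemokine genes (left) and of cytokine and growth factor genes (right) in each of the 9 libraries, with a bar at each group mean. Ccl2, Ccl7, Ccl3 and Ccl4 drop from untreated to PH-CM while Ccl6, Ccl9 and Cxcl16 climb, and Tgfb1 lies between 489 and 574 CPM in all 9 libraries.

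Receptors that sense microbes mostly rose. Of 30 genes of Toll-like and C-type lectin sensing, 21 were higher and 2 lower, Tlr13 and Tlr1; only 1 of these 2 was called without UNX replicate 2 and without PH-CM replicate 1. Tlr5, the receptor of flagellin, had 2.28, 2.8 and 2.54 CPM untreated and 24.5, 28.6 and 27.9 CPM under PH-CM (log2 fold change 3.41, edgeR FDR 1.45e-08). Clec4n, the lectin dectin-2, had 4.67, 3.35 and 3.4 CPM and 63.4, 62.2 and 69.5 CPM (log2 fold change 4.10, edgeR FDR 2.37e-09), and Clec4d, its partner, 335, 292 and 300.5 and 1301, 1215 and 1272 CPM. Of 30 genes of NF-kB and AP-1, 17 were higher and 6 lower, and of 41 myeloid transcription factors 18 and 9. Fosl2 of the AP-1 family rose from 62.5, 59.9 and 51.4 CPM to 369, 389 and 359.9 CPM, Bcl3, a nuclear IkB protein, from 11.7 ± 1.14 to 53.8 ± 6.02 CPM, and Cebpb (overlapping Tmem189) from 44.9 ± 3.68 to 164 ± 22.4 CPM (SD, n = 3). Jun (overlapping Junos), Atf3 and Tnfaip3, the deubiquitinase A20, were lower by 0.60, 0.47 and 0.41 on the log2 scale. Spi1, the macrophage master regulator PU.1, was called higher at a log2 fold change of 0.27 that 5 alternatives put below the 1.2-fold threshold, among them those without UNX replicate 2 (0.24) and without PH-CM replicate 3 (0.26).

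Genes of settled tissue macrophages moved in both directions, 10 higher and 14 lower of 32. The share of higher calls (31.25%) was that of all genes (31.3%), and the share of lower calls was 43.75%, against 31.7%. Mertk, the receptor for dying cells, Apoe and Ms4a7 rose, Mertk from 47.4, 53.5 and 49.7 CPM to 163, 161 and 163 CPM. Lpl, lipoprotein lipase, fell from 1557, 2003 and 2324 CPM to 103, 175 and 209.8 CPM, and Cx3cr1, Cd5l and Itgax, the integrin CD11c, fell with log2 fold changes of -2.91, -2.13 and -1.87. C1qb, of the first complement component, stood at 869.5 ± 43.3 and 964 ± 112 CPM (SD, n = 3) and was not called. Fc receptors rose in 5 of 7 cases, Fcgr4 from 12.8 ± 2.7 to 57.1 ± 12 CPM and Fcgrt, which recycles IgG, from 18.3 ± 1.98 to 68.9 ± 6.97 CPM, and C5ar1 fell from 798 ± 71.4 to 505 ± 17.6 CPM (SD, n = 3). Complement and Fc receptor genes together gave 10 higher and 3 lower of 21, and MHC and costimulation 13 and 6 of 30. Costimulatory genes split: Cd86 rose by 2.50 and Cd80 by 1.75 on the log2 scale, while Cd40 went from 11.2 ± 0.818 to 1.23 ± 0.208 CPM. None of the 7 class II genes was lower and 2 were higher (5 with the replicate number as a block).

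Interferon-stimulated genes leaned downward, with 16 of 36 lower and 2 higher (Gbp5 and Gbp7), a share of lower calls above the 31.7% of all genes that depended on single libraries: 10 were called lower without UNX replicate 3 and 9 without PH-CM replicate 2, and 1 higher without UNX replicate 1 or without PH-CM replicate 3. Ifit2, which binds viral RNA, had 17.8, 16.5 and 16.3 CPM untreated and 6.84, 6.12 and 10.6 CPM under PH-CM, and Bst2, tetherin, 94.7, 91.2 and 107 and 62.7, 54.6 and 62.3 CPM.

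Lysosomal genes rose in 37 of 53 cases with small folds (6 at least 2-fold), and 5 fell. Ctsl, cathepsin L, stood at 1346, 1440.0 and 1478 CPM untreated and 4742, 5397 and 5595 CPM under PH-CM (log2 fold change 1.88, edgeR FDR 3.41e-08), and Psap, the precursor of the saposins, at 4954, 6466 and 6202 and 12016, 13510.0 and 13007 CPM. Among those that fell were Ctsc, Lipa, Nagpa and the proton pump subunit Atp6v0a1, with log2 fold changes between -0.92 and -0.30. The lysosome list took 4.8% to 5.48% of all reads in untreated and 7.57% to 7.91% in PH-CM libraries. Lipid genes were divided, with 11 higher and 14 lower of 30. Abca1, which exports cholesterol, rose from 116, 212 and 178 CPM to 720.4, 846 and 757 CPM and Hilpda, a brake on fat breakdown, from 10.7 ± 3.42 to 80 ± 20.2 CPM, whereas the desaturase Scd1 fell from 75.2 ± 34.7 to 9.05 ± 0.508 CPM (SD, n = 3). In cholesterol synthesis, 19 of 23 genes were lower and none higher. Hsd17b7 was among the largest falls, from 54.7 ± 6.63 to 25.4 ± 1.32 CPM, while Srebf2, the factor that drives these genes, stood at 386 ± 24.2 and 351 ± 5.8 CPM (SD, n = 3) and was not called.

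Nuclear genes of the respiratory chain moved by small folds. Of 77 tested, 36 were lower and 2 higher, with a median log2 fold change of -0.23 and 1 gene at least 2-fold lower, Cycs, cytochrome c, at 75.9, 66.1 and 72.3 CPM untreated and 32.2, 26.1 and 29.1 CPM under PH-CM. Complex I gave 16 lower of 37, complexes II to IV 12 of 24 and complex V 8 of 16. Of the 12 mitochondrial messages, 3 were lower, mt-Nd1, mt-Nd2 and mt-Nd3. The TCA cycle gave 12 lower and 2 higher of 28 genes, and glutamine and shuttle genes 8 and 3 of 14: Idh3a, of the NAD-dependent isocitrate dehydrogenase, fell from 58.3 ± 4.59 to 19.1 ± 1.14 CPM, and the cytosolic Idh1 rose from 174 ± 31 to 366 ± 33.6 CPM (SD, n = 3). In glycolysis, 8 of 31 genes were higher and 6 lower, below the shares over all genes in both directions. The abundant Ldha, lactate dehydrogenase A, stood at 1081, 1827 and 1542 CPM untreated and 1296, 1996 and 1840.0 CPM under PH-CM, and the groups overlapped. Pdk2, a brake on pyruvate entry into the mitochondrion, rose from 8.05 ± 0.192 to 26.6 ± 0.239 CPM (SD, n = 3). The pentose phosphate pathway gave 3 higher and 4 lower of 10.

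Hypoxia-inducible genes varied with the replicate number. Summed over the list, these genes took 0.309%, 0.474% and 0.392% of reads in UNX replicates 1 to 3. In PH-CM replicates 1 to 3 they took 0.384%, 0.541% and 0.471%. The groups overlapped, though PH-CM was higher at each number, and in both groups replicate 1 was lowest and replicate 2 highest. Of 24 genes tested, 8 were higher (33.3%, against 31.3% of all genes) and 2 lower (8.33%, against 31.7%). With the replicate number as a block the counts were 10 and 5. The count of lower genes ran from 1 to 4 when single libraries were left out, with 4 when UNX replicate 1 was out and 1 when either of the other UNX replicates or replicate 1 or 3 of PH-CM was out. Mxi1, a MYC antagonist, rose from 25.6, 41.4 and 30.8 CPM to 128, 161 and 154 CPM. NRF2 antioxidant genes gave 11 higher and 5 lower of 28: the glutathione transferase Mgst1 rose from 24.3 ± 2.09 to 112 ± 6.43 CPM, the thioredoxin reductase Txnrd1 fell from 354 ± 78.1 to 234 ± 35.6 CPM, and Hmox1, heme oxygenase 1, stood at 918 ± 52.9 and 772 ± 38 CPM (SD, n = 3) and was not called. Beside Fth1, the iron list had Slc11a1, the phagosomal metal exporter NRAMP1, higher at 178 ± 7.55 and 379 ± 12.2 CPM, and 3 of its 14 genes rose in all. Of 19 eicosanoid genes, 6 were higher (31.58%, near the share over all genes) and 8 lower (42.11%). Pla2g4a, the cytosolic phospholipase A2 that releases arachidonic acid, fell from 58.8, 43.6 and 45.1 CPM to 7.65, 7.79 and 8.61 CPM, while Ptgs2, cyclooxygenase 2, rose from 1.91, 1.09 and 0.815 CPM to 11.6, 12.2 and 10.8 CPM and Pla2g7, which cleaves platelet-activating factor, from 1.76, 2.62 and 2.19 CPM to 33.5, 41 and 38.2 CPM. The phagocyte oxidase gave 5 higher and 2 lower of 9.

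PH-CM differed from CO-CM, medium of control fibroblasts, in fewer genes. In the same edgeR fit, PH-CM stood above CO-CM in 1457 genes (12.2%) and below it in 1787 (15%). The lists of DNA replication and mitosis were lower still under PH-CM, with 35 of 51 and 34 of 42 genes below CO-CM and median log2 differences of -0.44 and -0.65. G1 control differed less, with 12 of 30 genes below CO-CM and 5 above it and a median of -0.09. Monocyte and granulocyte genes were higher under PH-CM in 19 and lower in 2 of 33 cases (median 1.07), and matrix and protease genes in 18 and 7 of 38. All 6 MS4A genes that had risen were higher than under CO-CM, and 1 of the 8 tested was lower. Against CO-CM, Thbs1 differed by 5.66 on the log2 scale (edgeR FDR 6.31e-08), Slc7a11 by 4.10 (edgeR FDR 2.57e-08) and Clec4n by 3.13 (edgeR FDR 1.00e-07). Cholesterol synthesis genes, 19 of 23 of them lower than untreated, were higher than under CO-CM in 14 cases, and interferon-stimulated genes, 16 of 36 lower than untreated, in 18. Ribosome biogenesis genes exceeded their CO-CM level in 3 of 38 cases and fell short of it in 2, fewer than the shares over all genes. Lysosome genes exceeded it in 4 of 53 cases, below the share over all genes, and fell short of it in 10, above that share. Hgf stood at 42.9, 39.3 and 37.7 CPM under CO-CM, close to its PH-CM values (log2 difference 0.02, edgeR FDR 0.872), and Cxcr4 at 245, 249 and 235 CPM (log2 difference 0.22, edgeR FDR 0.113). Lpl, in contrast, stood at 824, 1710.0 and 1909 CPM under CO-CM and was lower under PH-CM (log2 difference -3.19, edgeR FDR 5.43e-05).

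Further letters were searched in the promoters of lists whose factor they are named for, as a description of these windows. The antioxidant response element TGACNNNGC lay in 11 of 34 windows of NRF2 genes (32.4%) and in 14.5% of those of tested genes, the hypoxia response core ACGTG in 17 of 28 windows of HIF targets (60.7%) and 25.7%, and the interferon-stimulated response element in 18 of 30 windows of interferon-stimulated genes (60%) and 3.19%. The sterol response element TCACNCCAC lay in 1 of 19 windows of cholesterol synthesis genes and in 1.17% of those of tested genes. The lysosomal E-box TCACGTGA, which contains the hypoxia core, lay in 6 of 49 windows of lysosome genes (12.2%) and in 1.88%, the AP-1 site TGANTCA in 3 of 34 windows of matrix and protease genes (8.82%) and in 5.15%, and the NF-kB site in 5 of 24 windows of chemokine genes (20.8%) and in 1.75%. Within the interferon list the letters were found in 4 of 10 windows of genes called lower and in 12 of 18 of genes not called.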

How the data were processed

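RNA of 9 macrophage cultures was sequenced as read pairs. According to the study's methods and the submitters' processing notes, the authors trimmed the reads, aligned them to GRCm38 with STAR 2.6.0c and assigned them to exons of the Ensembl 91 annotation with featureCounts 1.6.2, and they deposited raw counts per gene and RPKM, which are counts scaled by gene length and library total with no factor for composition. Use of strand is not given in the sources used here. The deposited tables of the authors' own comparisons hold fold changes and p-values and were not used.

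Counts were filtered at CPM above 1 in at least 3 libraries, scaled by TMM and tested in edgeR 4.0.16 (R 4.3.3) by the quasi-likelihood test over all 9 libraries, with Benjamini-Hochberg adjustment. Calls needed both a fold change of 1.2 or more and an FDR no higher than 0.05. The labels number the replicates but do not say what a number shares. Deviations from the group means correlated between 0.276 and 0.484 for libraries with the same number and between -0.376 and 0.042 otherwise, so a fit with the number as a block was run beside the main one. The study calls the replicates biological and the experiment repeated, without saying that each came from another mouse, so the p-values measure the spread between these repeats. Tested on simulated data, the fit recovered 192 of 198 changed genes of 11767 with 8 false calls. Far fewer genes changed there than were called here, all by at least 2-fold, and no replicate effect was simulated. These figures therefore do not give the error of the calls reported here. Symbols and positions came from an annotation of GRCm38 that matched 53274 of 53465 identifiers.

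Named genes are, per list, the 2 largest rises and falls among called genes without overlap and with at least 5 CPM in the higher group, the most abundant member and members against the majority, besides the 10 largest gains and losses in RPKM and, from 10 CPM, in fold. Those with a printed promoter follow their own rule, which left out chromosome 18, and genes given only as called or below the filter complete a count. The members and lists were chosen with earlier results of these data known. Alternatives were other scalings, filters, tests, samples and thresholds. A few genes that the rule names are not reported here.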

Additional observations from a re-analysis of the deposited data

How the results depend on the processing

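The counts of called genes kept within 1.5 times their value under every alternative run, with 2 exceptions: genes at least 2-fold higher numbered 1659 with no filter and 1566 with filterByExpr, against 982, where more genes of low count were tested. With library size alone, 3379 genes were higher and 4177 lower, and with upper-quartile factors 3950 and 3609. Leaving out single libraries gave 3593 to 3763 higher and 3689 to 3818 lower genes, 917 to 1044 and 1134 to 1211 at least 2-fold, and against CO-CM 1257 to 1570 higher and 1511 to 1852 lower. DESeq2 1.42.0 called 3761 higher and 3796 lower, and the edgeR exact test 3801 and 3829. With the replicate number as a block, 3845 genes were higher and 3869 lower. The block changed the call of none of the genes named by the rule, and beyond the counts given with it (class II, HIF targets and ribosome biogenesis) it moved by over 1.5 times only those of glycolytic transporters higher (0 to 1) and glycolytic enzymes lower (1 to 2). Of the gene list counts under the alternatives, 1448 stayed within 1.5 times and 32 moved. Of the named genes under the alternatives, 71 results lost and 8 gained their call and 0 reversed. Depth limits genes such as Il1b, which had few reads in untreated libraries.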
